A study of Mus musculus with 23 samples.

Results

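The genes described here are 10 genes of the alveolar epithelium, the cell layer that lines the air sacs of the lung: *Aqp5*, *Ager*, *Hopx*, *Pdpn*, *Sftpa1*, *Sftpb*, *Sftpc*, *Sftpd*, *Lamp3* and *Abca3*. They were found by symbol among the 55335 genes of a whole-lung RNA-Seq table, where all 10 were measured, and by symbol again among the 21878 genes of the tables of sorted neutrophils. The set was chosen by the measured difference between neutrophil-depleted and control whole lung, in which *Aqp5* stood apart, so the values in that comparison are given as a description, without a test. Levels are FPKM, fragments per kilobase of transcript scaled to the size of the library. All 10 genes passed the filter on low values in whole lung, an FPKM of 1 or more in 3 or more libraries. In sorted neutrophils 4 of them passed in lung against PB, 5 in lung against BM and 3 in the Piezo1 experiment, and *Aqp5*, *Sftpa1*, *Sftpc*, *Sftpd* and *Lamp3* passed in none.

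Alveolar type 1 (AT1) cells are thin and flat, cover most of the alveolar surface and carry gas exchange. Alveolar type 2 (AT2) cells are cuboidal, make and recycle pulmonary surfactant in lamellar bodies, and can give rise to new AT1 cells. *Aqp5* encodes a water channel of the apical AT1 membrane, which is also made in submucosal and salivary glands. *Ager* (the receptor RAGE), *Hopx* (a homeodomain protein without DNA binding of its own) and *Pdpn* (podoplanin, a membrane glycoprotein) are the other AT1 genes. *Sftpa1* and *Sftpd* encode secreted collectins of surfactant, *Sftpb* and *Sftpc* its small hydrophobic proteins, *Abca3* the lipid transporter of the lamellar body and *Lamp3* a membrane protein of the same organelle.

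The whole lungs came from WT mice with their neutrophils deleted (depleted, 3 libraries) or not (control, 3 libraries), which the methods describe as an anti-Ly6G antibody against an isotype antibody. The antibody was injected into the peritoneum on the day before analysis or on each of the 2 days before, and which schedule these lungs had is not stated. The other libraries were neutrophils sorted as CD45+CD11b+Ly6G+ cells. WT lung (perfused), peripheral blood (PB) and bone marrow (BM) gave 3 libraries each. A separate experiment on the mechanosensitive channel PIEZO1 gave 2 libraries each of lung neutrophils and of PB neutrophils, from WT and from *Piezo1*-cKO mice. *Piezo1*-cKO mice carry loxP-flanked *Piezo1* and *Vav1*-iCre, which acts in all hematopoietic cells and not in neutrophils alone. The methods name C57BL/6J mice of both sexes and a general age range in weeks, with younger mice in some experiments, and neither age nor sex is given per library. Y-linked genes were expressed in all 6 whole-lung libraries and *Xist* had an FPKM of at most 0.0319 in them, and 2 of the 4 Y-linked genes were slightly lower in depleted libraries without overlap. The 3 libraries of each tissue in the comparison of WT lung, PB and BM neutrophils came from 3 mice, per the legend of that experiment. It does not say whether the same mice gave all 3 tissues, and the main tests between tissues treat the libraries as unpaired. For the whole lungs and the Piezo1 experiment no source used here says whether libraries of a group came from separate animals, so p-values there measure the spread between libraries, which may be technical.

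The whole-lung FPKM summed to between 345075 and 391908 per library, and the read depth behind these values is unknown. Among 13990 genes tested, the Pearson correlation of log2(FPKM + 1) was 0.977 to 0.982 between libraries of 1 group and 0.972 to 0.982 between groups. Single genes could still jump: of 4696 genes with a mean FPKM above 10, 50 differed by more than 3-fold between libraries of the same group. None of the 10 genes did so, and their coefficient of variation within a group was 10.6% or less. The totals of counted reads by which the neutrophil FPKM were scaled, estimated from the FPKM, were 9621120 to 19330811 per library. They are not the number of reads sequenced. In all 13 pairs of neutrophil libraries of 1 group the reads per gene differed by more than sampling noise. The chi-square per gene was 1.49 to 3.49, where counting error alone gives about 1. It covers only genes with low values and 10 or more reads in the pair. Each library was kept as a replicate, but this does not show that libraries came from separate animals.

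The positions of the genes, in GRCm38, were as follows. *Aqp5* lies on the plus strand at chr15:99590782-99594829, with no other gene model over it. The nearest genes are 2 further aquaporins, *Aqp2* 6235 bases before it and *Aqp6* 6571 bases after it, and these were nearly silent in whole lung, with *Aqp2* at an FPKM of at most 0.415 and *Aqp6* listed at 0 in all 6 libraries. *Ager* (chr17:34597862-34600936, plus strand) sits between *Pbx2*, which ends 462 bases before it, and *Rnf5*, which ends 155 bases after it on the minus strand. *Sftpa1* (chr14:41131782-41136452, plus strand) and *Sftpd* (chr14:41172214-41185149, minus strand) lie in 1 cluster with the collectin gene *Mbl1* between them. *Sftpc* (chr14:70520949-70524081, minus strand) lies between *Bmp1*, 715 bases away, and the AT2 gene *Lgi3*, 6604 bases away. *Sftpb* (chr6:72304610-72314371) and *Abca3* (chr17:24351950-24410201) are on the plus strand, and *Hopx* (chr5:77086988-77115121), *Pdpn* (chr4:143267431-143299564) and *Lamp3* (chr16:19653378-19706375) are on the minus strand. An antisense gene, *Hopxos*, with an FPKM of 0.641 to 1.75, overlaps *Hopx*, and 2 noncoding genes overlap *Abca3*. The sources used here do not state whether strand was counted, but these 3 genes were far below *Hopx* and *Abca3* in every library.

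The RefSeq sequences before the transcription starts (GRCm38.p6, 250 bases, all on the strand of the gene) were present for 8 of the 10 genes and not for *Sftpc* and *Sftpd*. They are shown for the gene that stands apart in whole lung and for the genes it is set against. *Aqp5* has a GC content of 78.4% in this window, higher than in 98.1% of 32851 mouse promoters, and 38 CG dinucleotides against a median of 6. For comparison the GC content was 57.6% in *Ager*, 43.2% in *Pdpn* and 42.4% in *Lamp3*. An E-box, CACGTG, the palindrome bound by several basic helix-loop-helix factors, stands 87 bases before the RefSeq start of *Aqp5*. It was found in 6.02% of all promoters, and among these genes also in *Pdpn* and in 1 of the 2 promoters of *Hopx*. Of the *Aqp5* window, 246 of 250 bases belong to an annotated untranslated exon of a longer transcript, so only the 30 bases around the E-box are given (chr15:99590929-99590958, plus strand), with the E-box in capitals.
Aqp5: tgccgcgtgggtCACGTGgcccgggcgggt
The letters CTCAAG, the core of the sites that the lung epithelial factor NKX2-1 binds, were searched on both strands and occurred in 13.3% of all promoters. They stood in *Sftpb* 100 and 15 bases before the start, in *Sftpa1* 166 bases before it and in 1 of the 2 promoters of *Hopx*, and not in the windows of *Aqp5*, *Ager*, *Pdpn*, *Lamp3* or *Abca3*. In the sequences of *Sftpb* (chr6:72304360-72304609), *Sftpa1* (chr14:41131538-41131781) and *Ager* (chr17:34597600-34597849), all on the plus strand and ending before any annotated exon, these letters are in capitals, and *Ager* has none.
Sftpb: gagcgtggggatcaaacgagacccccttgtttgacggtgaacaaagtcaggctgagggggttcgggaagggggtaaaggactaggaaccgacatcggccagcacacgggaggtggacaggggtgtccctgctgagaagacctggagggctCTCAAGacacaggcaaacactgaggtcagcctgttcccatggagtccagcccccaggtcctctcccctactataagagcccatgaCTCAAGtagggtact
Sftpa1: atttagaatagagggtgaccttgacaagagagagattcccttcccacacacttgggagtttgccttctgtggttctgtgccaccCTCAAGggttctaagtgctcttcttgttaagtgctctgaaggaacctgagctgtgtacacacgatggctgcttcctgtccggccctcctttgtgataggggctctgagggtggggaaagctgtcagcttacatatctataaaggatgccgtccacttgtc
Ager: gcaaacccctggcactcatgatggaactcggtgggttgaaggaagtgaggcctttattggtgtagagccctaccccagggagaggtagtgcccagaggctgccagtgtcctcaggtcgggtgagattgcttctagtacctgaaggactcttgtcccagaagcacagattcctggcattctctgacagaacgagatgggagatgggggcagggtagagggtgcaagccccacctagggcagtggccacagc
The GC box GGGCGG was found in *Aqp5* and *Abca3* (32.7% of all promoters), and the glucocorticoid receptor half-site AGAACA only in *Lamp3* among these 8 genes (16.1% of all promoters). All 4 motifs were searched on both strands, and a match says only that these letters are present. In the printed stretch of *Aqp5* the E-box and the GC box share no bases.

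Which alveolar genes differed in lungs without neutrophils, and by how much, is the first comparison. *Aqp5* was lower in the depleted lungs while the 9 other genes stayed close to their control levels. Its FPKM was 71.5, 84.7 and 73.4 in the control libraries and 23.2, 26.9 and 28.6 in the depleted libraries. The highest depleted library was well below the lowest control library, and the 3 libraries of each group lay close together. The mean was 76.5 ± 7.15 (SD, n = 3) in control and 26.2 ± 2.77 (SD, n = 3) in depleted lungs, so depleted lungs held 34.3% of the control level, a 2.92-fold difference. On the log2(FPKM + 1) scale the difference, depleted minus control, was -1.51 ± 0.10 (SE), the 6th lowest of 13990 genes. Calls in whole lung required both a Benjamini-Hochberg adjusted p by limma under 0.05 and a log2 difference beyond 0.5 in either direction. Over all 13990 genes tested, 1 was called, 0.00715%. Since the 10 genes were chosen with these differences known, calls among these 10 are not given here. In whole tissue, fewer cells of a type and less RNA per cell cannot be told apart.

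**Figure D1:**
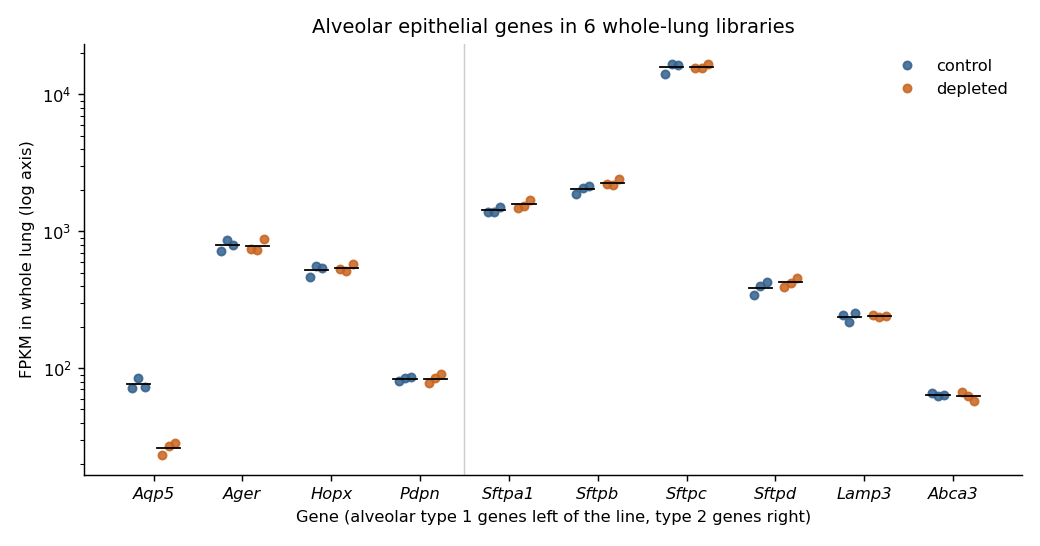
FPKM of the 10 alveolar genes in whole lung (log axis), one point per library with the mean of each group as a bar, control in blue and depleted in orange. The 3 depleted libraries lie below the 3 control libraries in *Aqp5* alone, at 23.2 to 28.6 against 71.5 to 84.7, and above them in *Sftpb* alone.

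The 3 other AT1 genes did not share this difference. *Ager*, far more abundant than *Aqp5* per length, was at an FPKM of 717, 864 and 794 in control and 744, 737 and 884 in depleted libraries. These ranges overlapped almost completely, and the log2 difference was -0.01 ± 0.11 (SE). *Hopx* was at 468, 556 and 537 in control and 531, 514 and 581 in depleted libraries, a log2 difference of 0.06 ± 0.09. *Pdpn*, whose control level is close to that of *Aqp5*, was at 80.2, 84.4 and 85.7 in control and 77.5, 84.8 and 90.3 in depleted libraries. Its groups overlapped too, with a log2 difference of 0.01 ± 0.08, so the AT1 gene nearest to *Aqp5* in control level was not lower with it.

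The surfactant genes and the 2 lamellar body genes were level or slightly higher. *Sftpc*, the second most abundant of all genes in control lung, made up 4.24% of the summed control FPKM and ranged from 14210 to 16807 over the 6 libraries, with a log2 difference of 0.01 ± 0.09. *Sftpb* was at 1868, 2068 and 2138 in control and 2225, 2196 and 2394 in depleted libraries. The depleted libraries of *Sftpb* all lay above the control libraries, but by little, with a log2 difference of 0.17 ± 0.08 and a 1.12-fold ratio of means. Both collectin genes leaned the same way with overlapping groups, *Sftpa1* by 0.13 ± 0.08 and *Sftpd* by 0.13 ± 0.10. *Lamp3* ranged from 217 to 254 with a log2 difference of 0.01 ± 0.08, and *Abca3* from 57.5 to 66.8 with -0.04 ± 0.08. Of the 10 genes, 1 was lower and 1 higher without overlap, where 11.8% of all genes tested were lower and 5.59% higher without overlap. The choice of the genes used this contrast, so these shares are given only as background.

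By level, the genes kept 1 order in both groups except for *Aqp5*. From high to low in FPKM, a scale per transcript length, control lung held *Sftpc*, *Sftpb*, *Sftpa1*, *Ager*, *Hopx*, *Sftpd*, *Lamp3*, *Pdpn*, *Aqp5* and *Abca3*. Neighbours in this order did not overlap over the 3 control libraries, other than *Pdpn* and *Aqp5*, and the same order holds for the depleted means down to *Pdpn*. In the depleted lungs *Aqp5* came last, below *Pdpn* and *Abca3* in every library. The ratio of *Aqp5* to *Ager* within a library, which does not depend on how libraries were scaled, was 9.97%, 9.81% and 9.24% in control and 3.12%, 3.65% and 3.23% in depleted libraries. Against each of the 9 other genes in turn, the mean ratio was 2.82-fold to 3.28-fold higher in control, lowest against *Abca3* and highest against *Sftpb*. Every control library had a higher ratio than every depleted library for all 9 genes. All 9 ratios share *Aqp5* as numerator, so they restate its own difference and are not 9 separate observations.

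**Figure D2:**
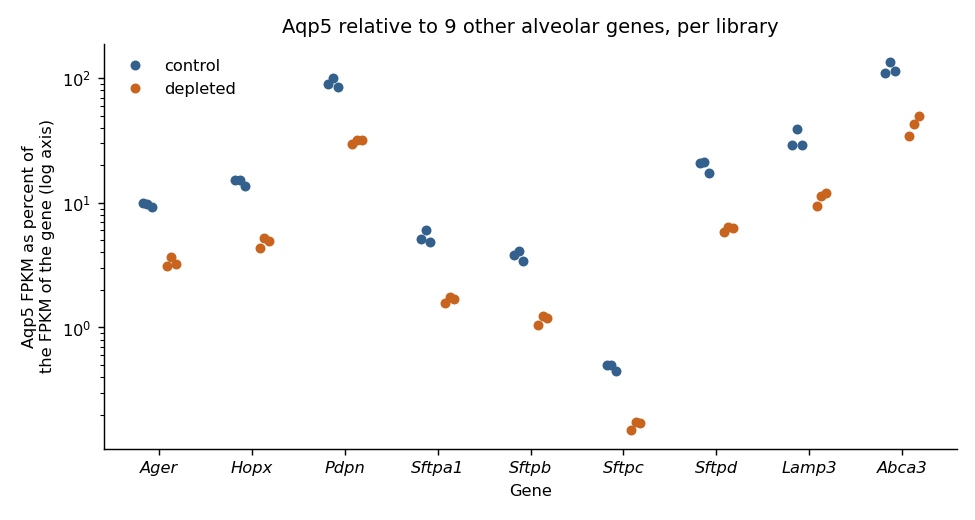
*Aqp5* FPKM as a percentage of the FPKM of each of the other 9 alveolar genes in the same library (log axis), control in blue and depleted in orange. For *Ager* the control libraries sit between 9.24% and 9.97% and the depleted libraries between 3.12% and 3.65%, and the gap is of similar size for the other 8 genes.

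Most of the 9 other genes varied together from library to library. Over the 6 libraries, which share these genes' library and scaling, the Pearson correlation of log2(FPKM + 1) was 0.94 between *Hopx* and *Sftpc*, 0.91 between *Sftpb* and *Sftpd* and 0.89 between *Ager* and *Hopx*, so AT1 and AT2 genes were not separate in this respect. *Abca3* ran the other way, with -0.92 against *Pdpn* and -0.76 against *Ager*. *Aqp5* had coefficients between -0.71 and 0.18 with the 9 other genes. When each group's mean was subtracted, the coefficient of *Aqp5* was 0.80 with *Pdpn*, 0.78 with *Ager* and 0.63 with *Hopx*, 0.65 with *Sftpc* and 0.41 to 0.59 with the 3 other surfactant genes, and -0.71 with *Lamp3* and -0.80 with *Abca3*. Within a group its small spread thus ran with AT1 and surfactant genes alike. These are descriptions over 6 libraries, without a test.

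Whether other genes of the same cells differed was asked of 30 further alveolar genes, 14 of AT1 and 16 of AT2 cells, which are not among the 10. In these and the following lists the genes named are the 2 most abundant of each list, and others picked after their values were seen. Over all genes tested, 5.59% were higher and 11.8% lower in depleted libraries without overlap. None of the 30 was called by limma, beside 0.00715% of all genes tested. None of the neutrophil markers given below was called either, so the lack of a call says little about this or the following lists. At an unadjusted p below 0.05, 3 of the 30 were higher and 4 lower, which is 7 of 30 beside 11.2% of all genes tested. Their log2 differences ran from -0.41 to 0.52 with a median of -0.00, beside -0.04 over all genes, and 21 of the 30 were within 0.2 of 0. No gene among them was as low as -1. The smallest adjusted p (limma, Benjamini-Hochberg over 13990 genes) was 0.287. Part of this list was also found in neutrophils. In sorted WT lung neutrophils the 14 AT1 genes summed to an FPKM of 149.5 to 154.1 and the 16 AT2 genes to 344.3 to 354.3. These are 9.69% and 10.8% of their control whole-lung sums, approximate because the 2 kinds of library were normalized separately. The part of neutrophils in the whole-lung levels was not tested.

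The AT1 genes of that list with the lowest differences were *Ndnf*, a secreted factor (-0.41 ± 0.16, adjusted p by limma 0.397), *Akap5*, an anchor of protein kinase A (-0.27 ± 0.10), and *Vegfa*, the endothelial growth factor that AT1 cells make (-0.21 ± 0.06, adjusted p by limma 0.295). *Vegfa* was at 150, 153 and 152 in control and 129, 129 and 136 in depleted libraries. These groups did not overlap, and depleted lungs held 86.7% of the control level. *Vegfa* is also expressed by the cells that were removed, with an FPKM of 149, 153 and 150 in sorted WT lung neutrophils against 9.03 to 13.5 in PB, and the part of neutrophils in its whole-lung level was not tested. The highest were *Cyp2b10*, a cytochrome (0.52 ± 0.16, adjusted p by limma 0.287) and *Lmo7*, a junctional scaffold (0.33 ± 0.10). The AT1 tight junction gene *Cldn18* (-0.03 ± 0.07), *Clic5* (0.11 ± 0.08), *Emp2* (0.02 ± 0.09) and *Gprc5a* (0.03 ± 0.10) stayed near 0. Of the 14 AT1 genes, 3 were higher and 2 lower without overlap, beside 5.59% and 11.8% of all genes tested.

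Of the 16 AT2 genes, 1 was higher and 2 were lower without overlap, beside the same 5.59% and 11.8% of all genes tested. *Etv5*, a transcription factor of AT2 cells, was at 64.2, 60.4 and 56.4 in control and 39.8, 46.3 and 56.0 in depleted libraries, a log2 difference of -0.35 ± 0.13 (adjusted p by limma 0.361). Its highest depleted library nearly reached the lowest control library. *Slc34a2*, the phosphate transporter of AT2 cells, was higher by 0.10 ± 0.07. The abundant AT2 genes *Cxcl15* (-0.02 ± 0.10), *Chil1* (-0.06 ± 0.10) and *Napsa*, the protease that processes surfactant protein B (0.06 ± 0.08), were near 0. *Lyz1*, a lysozyme and the third most abundant of the list in control lung, was at 679, 471 and 419 in control and 392, 448 and 373 in depleted libraries, with overlapping groups (-0.34 ± 0.18). The summed FPKM of the 16 was 3141 to 3352 in control and 3036 to 3184 in depleted libraries.

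**Figure D3:**
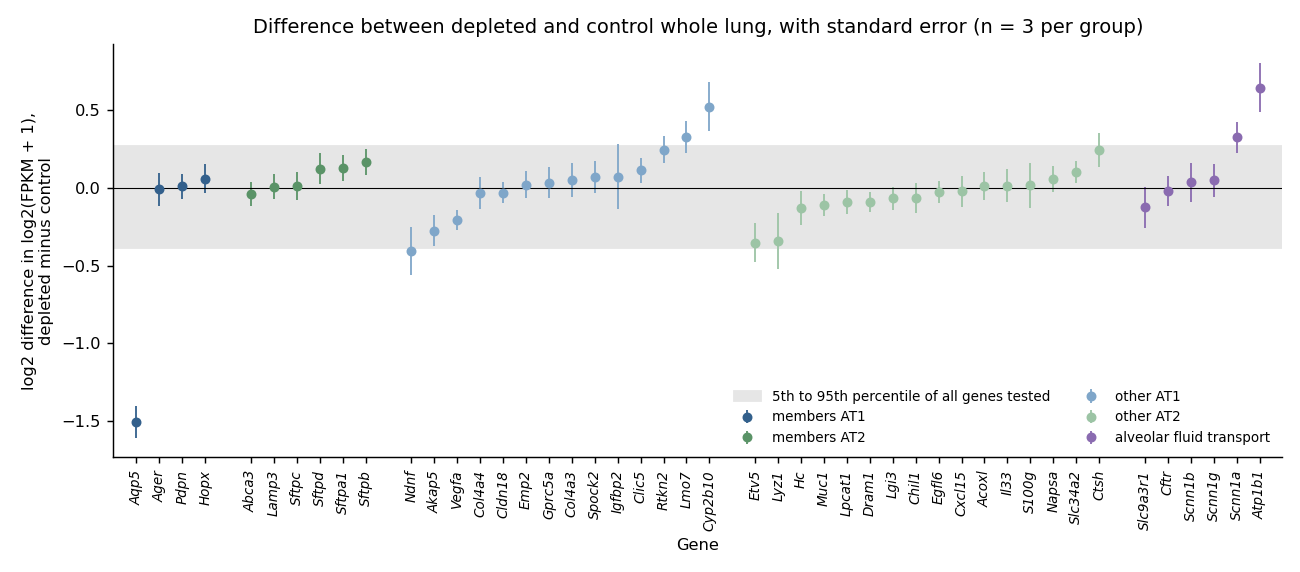
Difference in log2(FPKM + 1), depleted minus control, with its standard error (n = 3 per group) for the 10 genes, the 30 further alveolar genes and 6 genes of alveolar fluid transport, over a grey band from the 5th to the 95th percentile of all genes tested (-0.39 to 0.27). *Aqp5* lies at -1.51, and the next lowest of these genes is *Ndnf* at -0.41.

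Water and ion transport was looked at through the other aquaporins and the genes of alveolar fluid clearance. *Aqp1*, the endothelial water channel and the most abundant aquaporin, was at 352, 346 and 317 in control and 362, 320 and 366 in depleted libraries, with overlapping groups and a log2 difference of 0.04 ± 0.08. Only 3 of the 7 other aquaporins passed the filter, and none was called. *Aqp4* had an FPKM of 3.81 to 4.08 in control and 3.01 to 3.56 in depleted libraries (-0.23 ± 0.09, adjusted p by limma 0.414). None of the fluid transport genes described here was called by limma. *Atp1b1*, a subunit of the sodium pump, was at 115, 136 and 158 in control and 173, 225 and 246 in depleted libraries, a log2 difference of 0.65 ± 0.16 (adjusted p by limma 0.230). *Scnn1a*, the alpha subunit of the epithelial sodium channel, was at 100, 106 and 104 against 118, 125 and 150 (0.33 ± 0.10, adjusted p by limma 0.293). The 3 depleted libraries were above the 3 control libraries in both genes, where 5.59% of all genes tested were higher without overlap. *Scnn1b* (0.04 ± 0.12), *Scnn1g* (0.05 ± 0.10) and *Cftr* (-0.02 ± 0.09) overlapped.

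The lipid part of surfactant was read from 9 genes of fatty acid and phospholipid synthesis. None of these was called and 3 were lower without overlap, beside 11.8% of all genes tested. *Scd1*, the stearoyl-CoA desaturase, was at 1103, 932 and 940 in control and 828, 407 and 570 in depleted libraries (-0.78 ± 0.24, adjusted p by limma 0.296). *Srebf1*, a regulator of lipid synthesis, differed by -0.29 ± 0.08 and *Acly* by -0.16 ± 0.07. *Fasn*, the fatty acid synthase, overlapped between the groups (-0.18 ± 0.14). *Pcyt1a*, the rate-limiting enzyme of phosphatidylcholine synthesis, jumped within the depleted group, at 4.4, 18.9 and 17.5 against 4.61 to 4.90 in control. *Scd1*, *Srebf1* and *Acly* are also active in fat cells, whose 5 marker genes had a summed FPKM of 79.6 to 156 in control and 78.7 to 135 in depleted libraries, and the part of these cells was not tested. Of 13 transcription factors of lung epithelium, 12 passed the filter, none was called and 3 were lower without overlap, beside the same 11.8%. *Id2* was at 53.9, 42.3 and 43.5 in control and 28.6, 32.5 and 32.5 in depleted libraries (-0.56 ± 0.11, adjusted p by limma 0.162), and *Gata6* differed by -0.29 ± 0.11. *Cebpa*, the most abundant of them by mean, differed by 0.08 ± 0.07. *Nkx2-1*, which drives surfactant genes, jumped within both groups, between 22.4 and 68.8 in control and between 23.5 and 60.2 in depleted libraries, while the surfactant genes did not.

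None of the tested markers of other epithelial cells was called, and all overlapped between the groups. All 10 general epithelial genes overlapped between the groups, with a median log2 difference of 0.06, and the keratins *Krt8* (0.07 ± 0.18) and *Krt19* (-0.10 ± 0.17) were the most abundant. Of 9 airway genes 7 passed the filter and none was called, and the secretory cell genes *Scgb1a1* and *Scgb3a2* differed by 0.11 ± 0.19 and 0.04 ± 0.17. Of 8 gland genes, 4 passed the filter and none was called. The summed FPKM of the gland genes was 387 to 758 in control and 352 to 767 in depleted libraries, 1 of them (*Pip*) was listed at 0 throughout, *Muc5ac*, below the filter, was lower without overlap (an FPKM of 0.329 to 0.622 in control against 0.174 to 0.293), and *Bpifa1* and *Bpifb1* differed by -0.20 ± 0.39 and -0.16 ± 0.21. *Bpifa1* ranged from 291 to 599 in control and from 248 to 638 in depleted libraries, a wider spread within groups than that of *Aqp5*.

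Markers of neutrophils and lymphocytes were lower in depleted libraries, with none called. Of 10 neutrophil genes 9 passed the filter, and 8 of these were lower without overlap, with a median log2 difference of -1.48. *Il1b* (-1.79 ± 0.22, adjusted p by limma 0.0762) and *S100a9* (-1.60 ± 0.40, adjusted p by limma 0.231) were among them, and so was *Retnlg* (-1.33 ± 0.37). None was called by limma, all 8 had an unadjusted p below 0.05, and the summed FPKM was 215 to 276 in control and 41.8 to 123 in depleted libraries. The targeted antigen gene *Ly6g* had an FPKM of at most 0.577 in any whole-lung library, too low to serve as a check. All 6 lymphocyte genes were lower without overlap (summed FPKM 56.9 to 61.0 in control against 22.9 to 49.1). So were 3 of 6 fibroblast genes (median -0.34), beside 11.8% of all genes tested. For the remaining lists none was called, and the median log2 difference was -0.05 for 8 endothelial, 0.05 for 7 alveolar macrophage, -0.02 for 4 smooth muscle, -0.08 for 3 tested mesothelial, 0.08 for 4 muscle, -0.22 for 4 erythroid and -0.34 for 4 tested fat cell genes. The part of lymphocytes and fibroblasts in the level of *Aqp5* was not tested, and its level in sorted neutrophils is given below.

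The genes whose pattern over the 6 whole-lung libraries was most like that of *Aqp5*, by Pearson correlation of log2(FPKM + 1) among 7936 genes with a mean FPKM of at least 5, were *C1s1* (0.996), *5730508B09Rik* (0.99), *Tuba1a* (0.985), *Vegfa* (0.984) and *Gm10093* (0.978). All 5 were lower in depleted lungs by far less, with log2 differences from -0.25 (*Tuba1a*) to -0.12 (*5730508B09Rik*). In all 176 genes, 2.22%, had a coefficient above 0.9. None of the 9 other alveolar genes was near, the closest being *Abca3* at rank 3886 (0.18) and *Ager* at rank 4042 (0.15), and the last *Sftpb* at rank 7345 (-0.71). Most of the spread of *Aqp5* over the 6 libraries is its difference between the groups, so genes without such a difference rank low here. Its coefficients with the group means subtracted are given above. These coefficients are a description, and no test was made.

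The second question was how much of these transcripts was present in neutrophils themselves. Sorted neutrophils were checked by their markers: the 10 neutrophil genes summed to an FPKM of 52055 to 56423 in the WT lung libraries, against 215 to 276 in control whole lung. The 9 airway genes summed to 1.05 to 2.12 there, against 49470 to 83952 in control whole lung, a share of 0.00222%. Other lists held larger shares of their control whole-lung sums. The shares were 3.08% for lymphocyte, 0.577% for general epithelial, 0.544% for alveolar macrophage, 0.329% for endothelial and 0.0905% for erythroid genes. The source of those reads was not tested, and the further alveolar genes are given above. *Aqp5* was almost absent from the sorted WT lung neutrophils. It had 0, 1 and 0 reads in the 3 WT lung libraries, 0 in each PB and BM library of that comparison, and 1 and 0 reads in the WT lung libraries of the Piezo1 experiment. A count of 0 allows up to 3 reads, which for *Aqp5* is an FPKM of 0.113 to 0.117 in lung, against 71.5 to 84.7 in control whole lung. The tables were normalized separately, so a level set across them is approximate, and such limits cover counting error only. In the rest of the Piezo1 experiment, *Aqp5* gave 4 and 1 reads in lung neutrophils of *Piezo1*-cKO mice, and PB neutrophils gave 8 and 2 reads in WT and 0 in both *Piezo1*-cKO libraries. The highest of these levels was an FPKM of 0.391.

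*Sftpc* left a trace in lung neutrophils alone, and the other surfactant genes had few reads. *Sftpc* had 12, 8 and 13 reads in WT lung libraries, 10 and 8 in WT lung and 8 and 6 in *Piezo1*-cKO lung of the Piezo1 experiment, and 0 in all 10 libraries of PB and BM. Every lung library thus held a few *Sftpc* reads and no library of another tissue held any. Its mean FPKM of 0.810 ± 0.207 (SD, n = 3) in lung neutrophils was 0.00512% of the control whole-lung mean. *Sftpa1* had 0, 2 and 1 reads and *Sftpd* 0, 1 and 2 reads in WT lung, and both had 0 reads in all PB and BM libraries of that experiment. In the WT lung libraries of the Piezo1 experiment they had 9 and 11 and 11 and 2 reads, and in *Piezo1*-cKO lung 0 and 0 and 0 and 1. WT PB of the Piezo1 experiment gave 4 and 1 reads of *Sftpa1* and 1 and 0 of *Sftpd*. *Sftpb* did not follow *Sftpc*: it had more reads in BM (59, 63 and 81) than in lung (4, 4 and 10) or PB (5, 6 and 5), and in the Piezo1 experiment 11 and 16 reads in WT PB against 0 and 3 in WT lung. *Lamp3* had at most 2 reads in any of the 17 libraries.

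Other members were found in neutrophils of every tissue. *Ager* had an FPKM of 3.86, 3.80 and 3.53 in lung, 23.9, 22.5 and 13.8 in PB and 14.2, 15.4 and 13.8 in BM. It was lowest in lung, and PB and BM overlapped in part. The source of these reads was not tested. *Ager* was called lower in lung against PB (-2.12 ± 0.18 on the log2 scale, adjusted p by limma 1.25e-05) and against BM (-1.71 ± 0.06, adjusted p by limma 1.51e-09). In these comparisons 27.2% and 45.9% of the genes tested were called, and the median log2 difference of all genes was -0.54 against PB and -0.70 against BM. Calls in neutrophils needed a log2 difference beyond 1. Relative to those medians *Ager* differed by -1.58 and -1.0. After libraries were rescaled to the same median ratio, the value against BM was -0.98, just under the threshold, and the calls over all genes turned from 587 higher and 1476 lower to 920 higher and 466 lower against PB, and from 812 higher and 2965 lower to 1563 higher and 1174 lower against BM.

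*Hopx* had an FPKM of 7.64, 8.34 and 7.15 in lung, 5.03, 5.14 and 4.13 in PB and 15.5, 12.8 and 15.8 in BM. It was not called at the threshold of 1 (0.60 ± 0.09 against PB and -0.85 ± 0.08 against BM, adjusted p by limma 0.000465 and 3.32e-06). Relative to the medians of all genes these values are 1.13 and -0.14, and after rescaling *Hopx* was called higher in lung than in PB. By the adjusted p alone 6479 of 7577 genes passed against PB and 7628 of 8236 against BM, so differences between tissues were common among all genes. *Abca3* had an FPKM of 3.77, 3.18 and 3.68 in lung, 6.96, 7.70 and 5.85 in PB and 4.95, 4.69 and 5.14 in BM. It was not called in lung against PB (-0.78 ± 0.11) or BM (-0.39 ± 0.07), and the sign against BM turned after rescaling (0.29). *Pdpn* had an FPKM of 1.97, 2.12 and 2.34 in lung, 0.399, 0.413 and 0.526 in PB and 1.30, 1.72 and 2.04 in BM, and passed the filter against PB through lung alone, so no test is read from it there. Against BM it differed by 0.23 ± 0.11 (adjusted p by limma 0.0577). *Sftpb* passed against BM through BM alone, so no test is read from it. As shares of the control whole-lung mean, the lung neutrophil means were 5.52% for *Abca3*, 2.57% for *Pdpn*, 1.48% for *Hopx* and 0.472% for *Ager*, and 0.0164% or less for the 6 other genes. In the WT lung neutrophils of the Piezo1 experiment the shares were 1.84% for *Abca3*, 3.62% for *Pdpn*, 0.69% for *Hopx* and 0.0156% for *Ager*, with 0.0845% for *Sftpd*, 0.0283% for *Aqp5* and 0.0168% or less for the other 4, so these shares differed between the experiments.

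**Figure D4:**
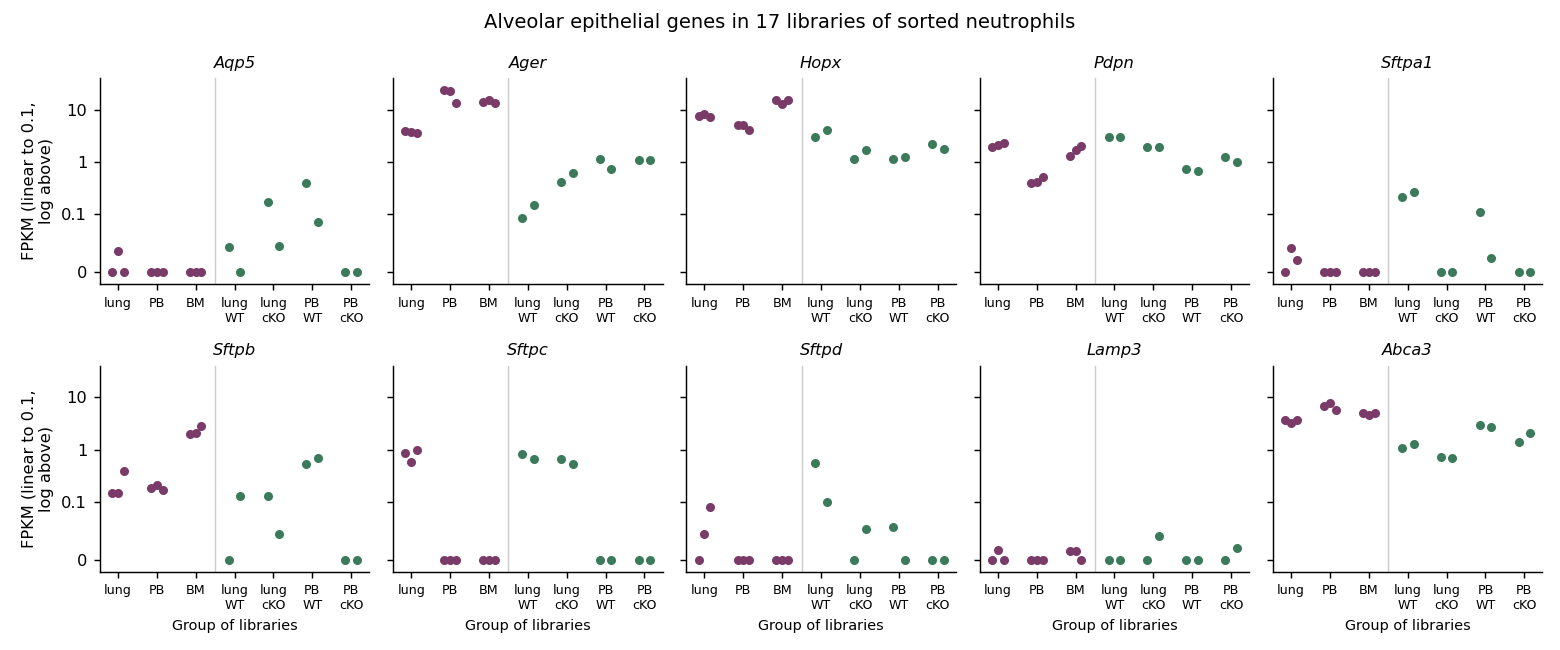
FPKM of the 10 genes in each library of sorted neutrophils (axis linear up to 0.1 and log above), with the comparison of tissues left of the line in purple and the Piezo1 experiment right of it in green. *Sftpc* is above 0 in the lung groups alone, *Ager*, *Hopx*, *Pdpn* and *Abca3* are present in every group, and *Aqp5* stays at or below 0.391.

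The Piezo1 experiment gave a second set of lung neutrophils. *Piezo1* itself had 8 and 8 reads in WT and 7 and 4 reads in *Piezo1*-cKO lung neutrophils. In PB neutrophils it had 5 and 5 reads in WT mice, and 3 and 10 reads in the knockout. These counts, over the whole gene, are too low to check the deletion. *Hopx* had an FPKM of 3.01 and 4.17 in WT and 1.17 and 1.68 in *Piezo1*-cKO lung neutrophils (-0.92 ± 0.15, adjusted p by limma 0.00283), which is under the fold threshold of 1. *Pdpn* was at 3.07 and 2.97 against 1.92 and 1.91 (-0.46 ± 0.09, adjusted p by limma 0.00531). *Abca3*, at 1.09 and 1.26 against 0.723 and 0.693, passed the filter through WT alone, so no test is read from it. None of these genes was called, beside 0.995% of all 6434 genes tested. By the adjusted p alone 3265 of the 6434 genes passed, so an adjusted p under 0.05 was common here. The median log2 difference of all genes was 0.09, and rescaling turned the calls from 51 higher and 13 lower to 35 higher and 18 lower. *Ager* did not pass the filter, with 3 and 5 reads in WT and 13 and 19 in *Piezo1*-cKO lung, and its FPKM of at most 0.617 there was well below the 3.53 to 3.86 of lung neutrophils in the comparison of tissues. The level of *Ager* in PB differed between the experiments in the same way, at 13.8 to 23.9 in the comparison of tissues and 0.740 to 1.16 in the Piezo1 experiment, and this difference was not tested.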

How the data were processed

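Whole lungs and sorted neutrophils were profiled by polyA RNA-Seq. Per the submitters' processing notes and the methods, the authors trimmed reads with fastp, aligned them to mm10 with HISAT2, counted them with HTSeq and deposited FPKM per gene and library. The labels and the methods name different library kits. Tool versions are not given in the sources used here, and the tables' other columns (group values, fold changes and p-values of the authors' own comparisons) were not used. All 23 samples were grouped by their labels, and 0 value columns lacked a sample.

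From the deposited FPKM, log2(FPKM + 1) was tested by limma 3.58.1 (lmFit, eBayes with trend and robust, R 4.3.3). Genes entered with an FPKM of 1 or more in 3 or more libraries (2 in the Piezo1 experiment), using the libraries of the 2 groups compared and Benjamini-Hochberg adjustment over all genes tested. Calls required an adjusted p under 0.05 with a log2 difference beyond 0.5 (whole lung) or 1 (neutrophils) in either direction. Whole reads per gene were recovered for the 17 neutrophil libraries (all of 4957 genes with low values were within 0.05 of a whole number) and used as descriptions. The model was tested on simulated data.

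The rule named the 10 genes, from each list the called genes with the largest difference and the 2 most abundant, and the 5 genes most like *Aqp5*, and other genes were named after their values were seen. 1 gene of the fluid transport list is not reported here. The members and lists were chosen with earlier results of these data known. Alternatives were a pseudocount of 0.1, no filter, rescaled FPKM, a replicate block, the adjusted p alone, another fold threshold, all 9 libraries in 1 fit and leaving out each library. Tables and figures used Python, pandas and matplotlib.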

Additional observations from a re-analysis of the deposited data

How the results depend on the processing

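The log2 difference of *Aqp5* stayed between -1.57 and -1.43 when each library was left out, and changed by less than the spread between libraries under every alternative. The 9 other genes lay between -0.09 and 0.22 under all 81 combinations of gene and alternative. None of the 30 further alveolar genes was called under any alternative, which says little where so few of all genes were called. The count of genes called in whole lung, 1 of 13990, was not stable: it was 4 with a pseudocount of 0.1, 0 without a filter, 5 with the replicate block and 0 to 12 when each library was left out (4 without control replicate 1, 5 without control replicate 2, 12 without depleted replicate 1, and 0 without control replicate 3 or depleted replicate 3). The cause was not tested. With the adjusted p alone the counts were 6479 in lung against PB, 7628 in lung against BM and 3265 in *Piezo1*-cKO against WT lung neutrophils, because the fold threshold was dropped, and a pseudocount of 0.1 gave 332 in place of 64 in the last. Leaving out libraries gave 1877 to 1953, 2931 to 3625 and 49 to 66. *Abca3* in lung against BM neutrophils turned from -0.386 to 0.286 with rescaled FPKM. *Ager* in the same comparison and *Hopx* in lung against PB crossed the fold threshold with rescaled FPKM (-0.982 and 1.13). *Hopx* in *Piezo1*-cKO against WT lung neutrophils was called without WT replicate 1 (-1.10) or *Piezo1*-cKO replicate 2 (-1.07) and with a pseudocount of 0.1 (-1.28). At equal replicate numbers, deviations from the group means correlated at 0.0593, 0.0438 and -0.0266 in whole lung. The values were -0.0611, 0.0354 and -0.089 in lung against PB and 0.052, -0.000778 and 0.0156 in lung against BM. Equal numbers thus showed no sign of pairs, but libraries may be paired under other numbers. The replicate block changed none of the calls of the 10 genes in neutrophils.

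Limits are the 3 libraries per group in whole lung, the unknown read depth there, and the few reads of *Aqp5* and the surfactant genes in neutrophils, where a difference of some reads between groups was not detectable.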
